A study of Mus musculus with 15 samples.

Results

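Transcripts of 10 genes used as markers of astrocytes, the star-shaped support cells of the brain, were followed through 15 RNA sequencing libraries labelled as mouse brain. The genes were Slc1a3, Slc1a2, Aldoc, Gfap, Aqp4, Aldh1l1, Gja1, S100b, Glul and Sparcl1, each found by its mouse Ensembl identifier, which makes 10 of the 65964 entries in the expression table. The genes were taken by name as known markers, with earlier results of these data already known. They were read as a measure of how much astrocyte RNA the libraries hold, in a series whose title concerns lipid-laden reactive astrocytes in epilepsy. Abundance is given as TPM, a transcript abundance already scaled for transcript length and library size.

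The mice were of the C57BL/6 strain, and every sample, the untreated ones included, is labelled as a temporal lobe epilepsy model induced by KA. Kainic acid (KA) is an agonist of kainate-type glutamate receptors that sets off seizures in rodents. The 5 groups of 3 libraries each were APOE_H and APOE_L (KA together with APOE), KA_H and KA_L (KA alone) and CTRL_L (untreated). The labels define neither the letters H and L nor what was done to APOE, and they give no age and no untreated H group. Nothing in them ties the 3 libraries of a group to different animals. The p-values below therefore rest on the spread among libraries, and that spread may be technical.

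Astrocytes take up glutamate released at synapses through 2 sodium-coupled transporters, encoded by Slc1a3 and Slc1a2, and turn it into glutamine with glutamine synthetase, encoded by Glul. Glutamine then passes back to neurons, and loss of this clearance is tied to seizures. The same cells hold intermediate filaments built from GFAP, water channels on the end-feet that surround vessels (Aqp4) and gap junctions that join neighbouring cells (Gja1). Glul is not restricted to astrocytes, and is also known in oligodendrocytes and macrophages.

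Several features of the whole series touch these genes. All 18 microglia markers were at 1 TPM or more in each of the 15 libraries, with a summed level of 16216 to 58888 TPM. By contrast, 2 of 20 neuron markers, 7 of 14 oligodendrocyte markers and 0 of 10 oligodendrocyte precursor markers reached 1 TPM in at least 3 libraries, so the libraries lack most of the transcripts that define neurons in brain tissue. The 10 choroid plexus markers summed to between 38531 and 59134 TPM in APOE_H, 126 to 297 TPM in APOE_L, 33307 to 41425 TPM in KA_H and 57.6 to 1281 TPM in KA_L. The CTRL_L libraries stood apart from each other on this list, with 140 TPM in replicate 1, 39316 TPM in replicate 2 and 23979 TPM in replicate 3. Apoe itself was at 144, 6.49 and 12.4 TPM in APOE_H and 0.69, 0.71 and 0 TPM in APOE_L, against 8767 to 16636 TPM in KA_H, 1970 to 3262 TPM in KA_L and 161 to 889 TPM in CTRL_L. The number of reads behind a value is unknown, because TPM keeps no depth. An exact 0 can be a failed estimate, since 4 of 30 genes used by every cell were listed at 0 in 2 to 7 libraries, so a gene at 0 is called listed at 0.

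Of the 10 astrocyte markers, 2 were detected in every library. Slc1a3 and Glul were at 10 TPM or more in every library, whereas the other 8 genes each fell below 1 TPM in at least 8 libraries. Between 2 and 5 of the 10 genes reached 1 TPM in any single library. Their sum was 266 ± 39.1 TPM in APOE_H, 217 ± 44.2 TPM in APOE_L, 101 ± 31.3 TPM in KA_H, 286 ± 87.8 TPM in KA_L and 401 ± 55.7 TPM in CTRL_L (mean ± SD, n = 3 each). In single libraries that sum lay between 74.7 and 453 TPM, or 0.00747% to 0.0453% of the total. Slc1a3 and Glul together made up 44.2% to 99.99% of it. Which cells the RNA of these 2 genes came from was not tested. The summed microglia markers exceeded the summed astrocyte markers by 41.4 to 597 times. In tissue RNA, fewer cells of a type and less RNA per cell cannot be told apart.

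**Figure D1:**
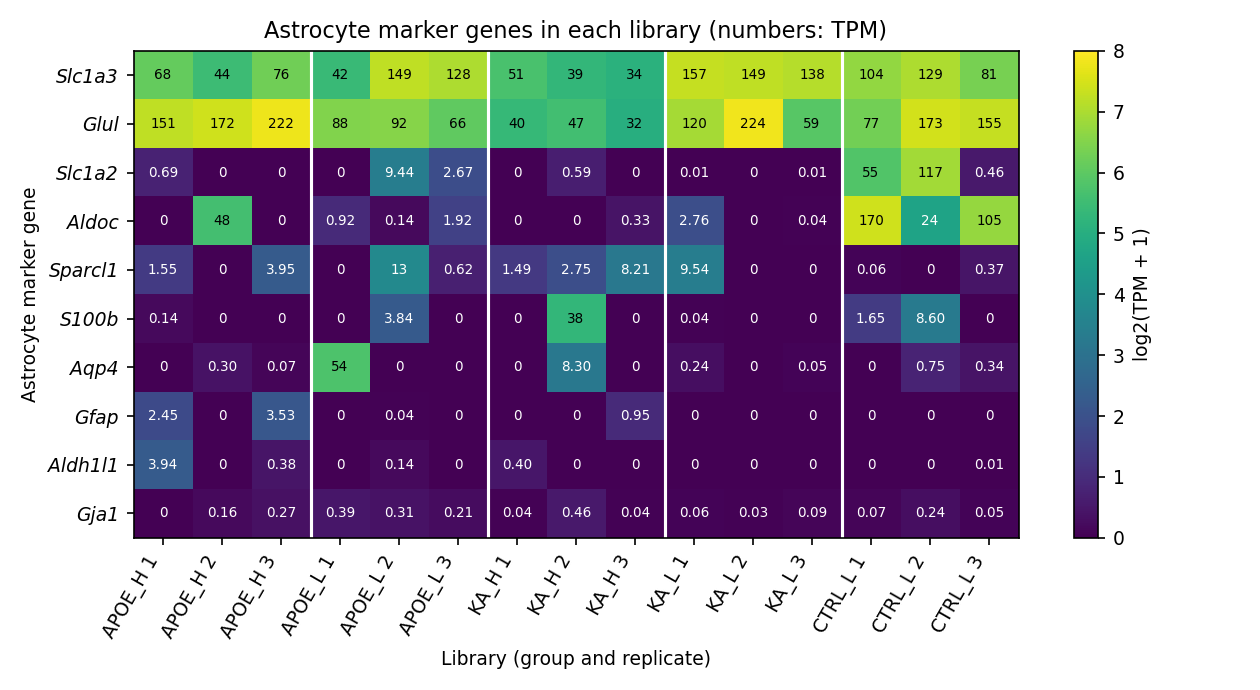
Level of each of the 10 astrocyte marker genes (rows) in each of the 15 libraries (columns, by group and replicate). The number in a cell is TPM and the colour is log2(TPM + 1). Slc1a3 and Glul are present in all columns, Aldoc is highest in CTRL_L, and most other cells are at or near 0.

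The sum of the 8 genes other than Slc1a3 and Glul set the untreated libraries apart. It was 8.77, 48.4 and 8.20 TPM in APOE_H, 54.8, 26.4 and 5.42 TPM in APOE_L, 1.93, 50.5 and 9.53 TPM in KA_H, and 12.6, 0.03 and 0.19 TPM in KA_L, against 227, 150.3 and 106 TPM in CTRL_L. No library of the 4 treated groups reached the lowest CTRL_L library. In several treated libraries a single gene made up most of the sum, namely Aqp4 in APOE_L replicate 1, Aldoc in APOE_H replicate 2 and S100b in KA_H replicate 2. In each CTRL_L library, too, a single gene made up most of the sum. It was Aldoc in replicates 1 and 3 (170.2 and 105 TPM) and Slc1a2 in replicate 2 (117 TPM). Gfap, Aqp4, Aldh1l1 and Gja1 were below 1 TPM in every CTRL_L library, so the separation came from Aldoc and Slc1a2 and not from the 8 genes as a set.

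**Figure D2:**
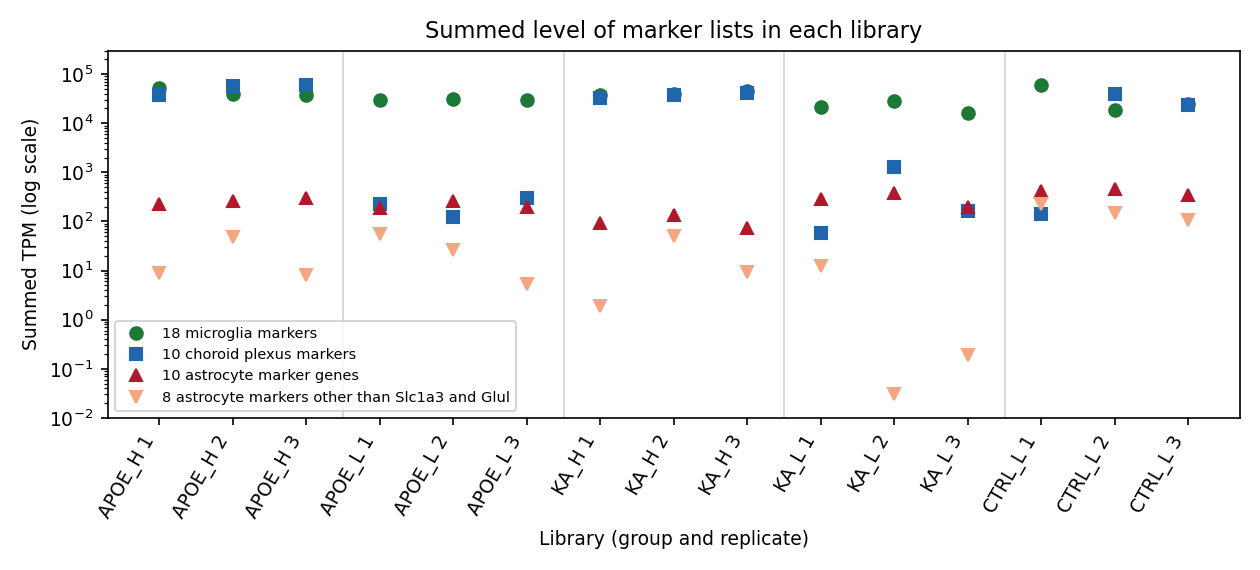
Summed TPM (log scale) in each library of 18 microglia markers, 10 choroid plexus markers, the 10 astrocyte marker genes and the 8 of these other than Slc1a3 and Glul. Microglia sums lie between 16216 and 58888 TPM and astrocyte sums between 74.7 and 453 TPM, and the sum of the 8 genes is above 100 TPM in CTRL_L alone.

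Slc1a3 (ENSMUSG00000005360) encodes GLAST, a glutamate transporter of astrocytes and radial glia. Its level was 68.0, 43.9 and 76.0 TPM in APOE_H, 41.5, 149 and 128 TPM in APOE_L, 51.2, 38.6 and 33.5 TPM in KA_H, 157, 149 and 138 TPM in KA_L, and 103.5, 129 and 81.3 TPM in CTRL_L. The 3 KA_L libraries lay close together at the top of the range, and APOE_L held 1 library far below the other two. By group mean the order was KA_L (148 ± 9.42 TPM), APOE_L (106 ± 57.0 TPM), CTRL_L (105 ± 24.0 TPM), APOE_H (62.6 ± 16.7 TPM) and KA_H (41.1 ± 9.10 TPM; SD, n = 3 each). Among neighbours in that order, the values of CTRL_L and APOE_H did not overlap, and those of the other 3 pairs did.

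Each KA_H library had less Slc1a3 than each KA_L library. The difference was -1.84 on the log2(TPM + 1) scale (SE 0.64), with an adjusted p of 0.188 by limma with Benjamini-Hochberg adjustment over 17505 tested entries, and so did not pass the threshold of 0.05. Each KA_L library had more Slc1a3 than each CTRL_L library, by 0.52 (SE 0.64, adjusted p = 0.814). The values of APOE_H and APOE_L overlapped (log2 fold change -0.60, adjusted p = 0.631), as did those of APOE_L and KA_L (-0.66, adjusted p = 0.874) and of APOE_H and KA_H (0.58, adjusted p = 0.876). The change between H and L was 1.25 higher on the log2 scale in APOE than in KA (SE 0.91, adjusted p = 0.766), a difference that did not pass either.

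Glul was the most abundant of the 10 genes on average, at 114 TPM over the 15 libraries, with Slc1a3 next at 92.5 TPM. By mean abundance they took places 1236 and 1582 among all entries. Glul (ENSMUSG00000026473) was at 151, 172 and 222 TPM in APOE_H, 87.8, 91.5 and 65.6 TPM in APOE_L, 39.8, 46.7 and 31.7 TPM in KA_H, 119.9, 224 and 59.1 TPM in KA_L, and 76.9, 173 and 155 TPM in CTRL_L. The KA_L libraries spread over nearly the whole range of the series, while those of KA_H were the lowest of all. By group mean the order was APOE_H (182 ± 36.4 TPM), CTRL_L (135 ± 51.2 TPM), KA_L (134 ± 83.4 TPM), APOE_L (81.6 ± 14.0 TPM) and KA_H (39.4 ± 7.50 TPM). Among these neighbours, the values of APOE_L and KA_H alone did not overlap.

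The Glul values of H and L differed in opposite directions under the 2 treatments, but no test of these differences passed the threshold. All 3 KA_H libraries lay below all 3 KA_L libraries (log2 fold change -1.56, SE 0.63, adjusted p = 0.255), whereas all 3 APOE_H libraries lay above all 3 APOE_L libraries (1.14, SE 0.63, adjusted p = 0.310). The test of that difference gave 2.70 on the log2 scale (SE 0.89), with an unadjusted p of 0.0078 and an adjusted p of 0.445 by limma. All 3 APOE_H libraries also lay above all 3 KA_H libraries (2.18, SE 0.63, adjusted p = 0.226). The log2 fold changes were -0.53 between APOE_L and KA_L (adjusted p = 0.913) and -0.12 between KA_L and CTRL_L (adjusted p = 1), with overlapping values in both. None of the 6 comparisons of Glul passed the threshold. For this gene and the others, the share of all entries whose groups do not overlap was not computed. In APOE_H against APOE_L the median of all tested entries was itself 0.54. In the annotation, Glul shares part of its span with Mir8114 on the same strand, an entry that reached 151.8 TPM, and with Teddm2 on the opposite strand, which reached 18.3 TPM. Whether reads were counted by strand is not given in the sources used here, so reads of these genes may be split between them and the level of Glul is uncertain to that extent.

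**Figure D3:**
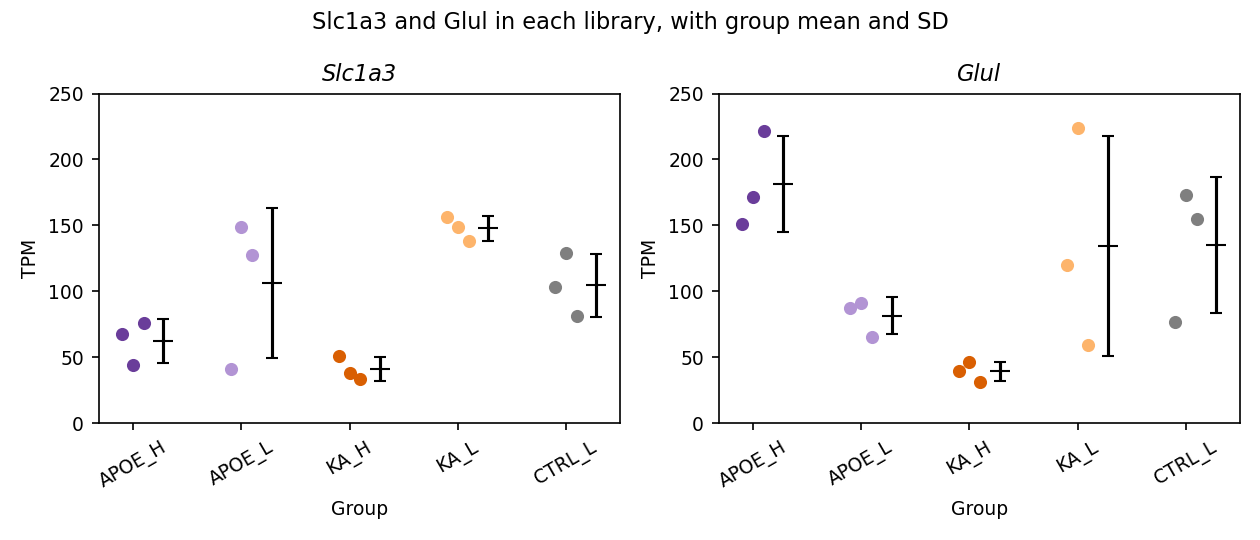
TPM of Slc1a3 (left) and Glul (right) in each library by group, with points for libraries and bars for the group mean and SD (n = 3). Both genes are lower in KA_H than in KA_L in every library, and for Glul the 3 APOE_H libraries are above the 3 APOE_L libraries.

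Part of the difference between H and L depended on the scale. The median log2 fold change of all tested entries in APOE_H against APOE_L was 0.54 in the deposited TPM and -0.06 after quantile normalisation. Set against the median of all entries, Glul was higher in APOE_H than in APOE_L by 0.60 in the deposited TPM and by 1.20 after quantile normalisation. The log2 fold change of Glul itself was 1.14 on both scales, so here the median moved and not Glul. In KA_H against KA_L, Slc1a3 differed from the median of all entries by -1.95 in the deposited TPM and by -1.07 after quantile normalisation, and Glul by -1.67 and -0.83. The direction of both genes between H and L was kept under each of these scalings.

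Slc1a2 (ENSMUSG00000005089) encodes GLT-1, which carries most of the glutamate uptake of the adult forebrain. It was at 0.69, 0 and 0 TPM in APOE_H, 0, 9.44 and 2.67 TPM in APOE_L, 0, 0.59 and 0 TPM in KA_H, and 0.01, 0 and 0.01 TPM in KA_L, against 55.5, 117 and 0.46 TPM in CTRL_L. It was thus high in 2 of 3 untreated libraries and below 10 TPM in all others. Every KA_L library lay below every CTRL_L library, with a log2 fold change of -4.41 (SE 1.31, adjusted p = 0.183, limma). Leaving out CTRL_L replicate 3 gave -6.34 and an adjusted p of 0.0145, which passes the threshold. Over all 25 alternatives the adjusted p ran from 0.0145 to 0.722. In the annotation it overlaps Gm13872 on the opposite strand, which reached 7.29 TPM.

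Aldoc, the gene of the brain form of the glycolytic enzyme aldolase, was the other marker with its highest values in untreated libraries. Its level was 0, 48.0 and 0 TPM in APOE_H, 0.92, 0.14 and 1.92 TPM in APOE_L, 0, 0 and 0.33 TPM in KA_H, and 2.76, 0 and 0.04 TPM in KA_L, against 170.2, 23.9 and 105 TPM in CTRL_L. A single treated library, APOE_H replicate 2, came within the untreated range. KA_L lay below CTRL_L in every library, with a log2 fold change of -5.60 (SE 1.39, adjusted p = 0.0960, limma). Without APOE_H replicate 2, which takes no part in that comparison but adds to the shared estimate of spread, the same fold change had an adjusted p of 0.0314, in a range from 0.0314 to 0.541 over all 25 alternatives.

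In KA_L against CTRL_L, therefore, 0 of the 6 astrocyte markers that could be tested passed, and 2, Aldoc and Slc1a2, had an unadjusted p under 0.05 by limma. Over all entries tested, 0.571% passed in this comparison and 1945 of 17505 had an unadjusted p under 0.05. The 14 oligodendrocyte markers summed to 15.1 to 70.9 TPM in KA_L, against 103 to 193 TPM in CTRL_L, with 1 to 3 and 3 of them at 1 TPM or more. A single gene, Mbp, made up most of each CTRL_L sum, at 105.51, 142.52 and 75.21 TPM. In KA_L Mbp was at 14.35, 44.47 and 8.24 TPM. The 20 neuron markers summed to 0.24 to 1.06 TPM in KA_L, against 2.60 to 66.8 TPM in CTRL_L, with 0 and 1 to 2 of them at 1 TPM or more. The highest of these sums was almost all Syt1, at 66.4 TPM in CTRL_L replicate 2. The 10 oligodendrocyte precursor markers overlapped, at 0.06 to 107 TPM in KA_L and 0 to 81.7 TPM in CTRL_L. The part of the mix of brain cells in these differences was not tested. Choroid plexus markers were high in CTRL_L replicates 2 and 3 and low in replicate 1. Against CTRL_L replicate 1 alone, a comparison chosen after the data were seen, KA_L differed by -6.76 for Aldoc (adjusted p = 0.123) and by -5.81 for Slc1a2 (adjusted p = 0.0428). There the lone untreated library is assumed to vary like the other groups.

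The other 6 markers were below 1 TPM in most libraries. Gfap (ENSMUSG00000020932), whose filament protein increases in reactive astrocytes, was listed at 0 in 11 libraries. It was at 2.45, 0 and 3.53 TPM in APOE_H, 0, 0.04 and 0 TPM in APOE_L and 0, 0 and 0.95 TPM in KA_H, and was listed at 0 in all KA_L and CTRL_L libraries. Aqp4, the water channel gene, was at 0, 0.30 and 0.07 TPM in APOE_H, 53.5, 0 and 0 TPM in APOE_L, 0, 8.30 and 0 TPM in KA_H, 0.24, 0 and 0.05 TPM in KA_L, and 0, 0.75 and 0.34 TPM in CTRL_L. APOE_L replicate 1 held the highest Aqp4 level and KA_H replicate 2 the next. Gja1, encoding the gap junction protein connexin 43, did not exceed 0.46 TPM in any library.

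Aldh1l1, a folate enzyme gene widely used to mark all astrocytes, was at 3.94, 0 and 0.38 TPM in APOE_H, and did not exceed 0.40 TPM in the other groups. S100b, a calcium-binding protein gene also known in oligodendrocyte precursors, reached 38.4 TPM in KA_H replicate 2, 8.60 TPM in CTRL_L replicate 2 and 3.84 TPM in APOE_L replicate 2, and was listed at 0 in 9 libraries. Sparcl1, encoding the secreted synapse-promoting protein hevin, was at 1.55, 0 and 3.95 TPM in APOE_H, 0, 12.5 and 0.62 TPM in APOE_L, 1.49, 2.75 and 8.21 TPM in KA_H, 9.54, 0 and 0 TPM in KA_L, and 0.06, 0 and 0.37 TPM in CTRL_L. It was above 1 TPM in all KA_H libraries and in no CTRL_L library, but the fitted comparisons of Sparcl1 and S100b gave adjusted p-values of 0.542 or more by limma. Gfap, Aqp4, Aldh1l1 and Gja1 did not reach 1 TPM in 3 libraries and were not tested.

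Across the remaining comparisons none of the 6 tested markers passed either. In KA_H against KA_L, 1.49% of all tested entries passed. An unadjusted p under 0.05 was found for 2 of the 6 markers, Slc1a3 and Glul, and for 2595 of 17505 entries. In APOE_H against APOE_L 6.15% of all entries passed, the highest share of the 6 comparisons, and 0 of the 6 markers and 3834 entries had an unadjusted p under 0.05. In APOE_L against KA_L 0.0457% passed, and 0 markers and 1373 entries had an unadjusted p under 0.05. In APOE_H against KA_H 0.531% passed, and 1 marker, Glul, and 1510 entries had an unadjusted p under 0.05. For the difference between treatments in the change between H and L, 0.0457% passed, and 1 marker, again Glul, and 1456 entries had an unadjusted p under 0.05. The median log2 fold change of the 6 tested markers and of all entries was -0.83 and 0 in KA_L against CTRL_L, -0.15 and 0.11 in KA_H against KA_L, and -0.43 and 0.54 in APOE_H against APOE_L. These medians cover only the markers that reached the filter.

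**Figure D4:**
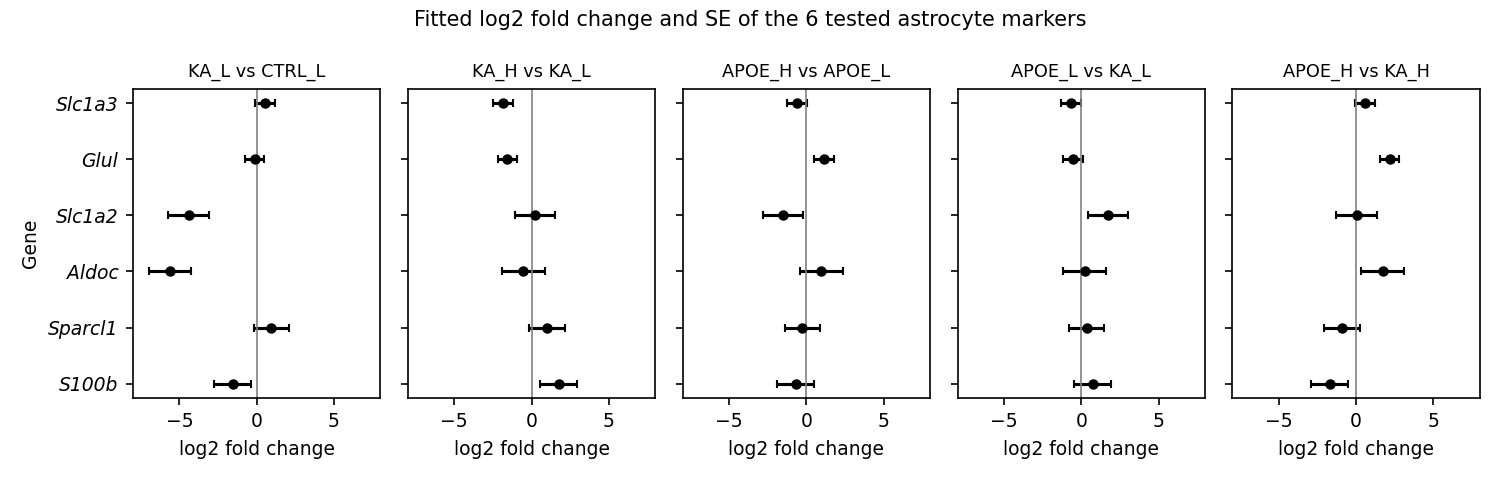
Fitted log2 fold change on the log2(TPM + 1) scale (points) with its SE (bars) of the 6 tested astrocyte markers in 5 comparisons. Slc1a2 and Aldoc lie farthest from 0, both lower in KA_L than in CTRL_L, and no gene passed an adjusted p of 0.05.

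A second list of 20 astrocyte genes gave the same picture of few detected members but held some abundant ones. Of the 20, 9 reached 1 TPM in at least 3 libraries, none was at 1 TPM in all 15, and 4 genes typical of astrocytes stayed at 0.36 TPM or below. These were Slc6a11, a GABA transporter gene, Ntsr2, a neurotensin receptor gene, Fgfr3, a growth factor receptor gene, and Acsbg1, a fatty acid activating enzyme gene. In APOE_H against APOE_L, 4 of the 9 tested genes rose and 0 fell (limma, adjusted p under 0.05), where 4.7% of all tested entries rose and 1.45% fell (822 and 254 entries, against 568 and 419 after quantile normalisation). In KA_H against KA_L, 1 rose and 0 fell, where 1.23% of all tested entries rose and 0.251% fell. No gene of the list passed in KA_L against CTRL_L, APOE_L against KA_L, APOE_H against KA_H or the difference between treatments, where 2, 0, 1 and 1 had an unadjusted p under 0.05 by limma.

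Clu, encoding the secreted chaperone clusterin, was at 1604, 1955 and 2021 TPM in APOE_H and 0, 2.23 and 0 TPM in APOE_L, a log2 fold change of 10.29 (SE 1.91, adjusted p = 0.00629, limma). In KA it was at 784, 962 and 767 TPM in KA_H and 0.14, 30.2 and 0.03 TPM in KA_L, a log2 fold change of 7.97 (SE 1.91, adjusted p = 0.0481) that failed the threshold in 14 of 24 alternative fits. In CTRL_L it was at 0.03, 1194 and 740 TPM, high in the same 2 untreated libraries that held choroid plexus transcripts. Clu is known in choroid plexus and ependyma as well as in astrocytes.

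Ndrg2, a differentiation-related gene of astrocytes, was at 107, 149 and 179 TPM in APOE_H and 0, 0.28 and 0 TPM in APOE_L (adjusted p = 0.00855 for a log2 fold change of 7.04, SE 1.40). Slc7a10, the gene of the small neutral amino acid transporter Asc-1, was at 69.7, 77.8 and 90.7 TPM in APOE_H and was listed at 0 in all APOE_L libraries (adjusted p = 0.0103). The calls of Clu, Ndrg2 and Slc7a10 between APOE_H and APOE_L held in each of 24 alternative fits. Atp1b2, a sodium pump subunit gene, was at 12.3, 32.5 and 25.1 TPM in APOE_H and 0.03, 0 and 0 TPM in APOE_L (adjusted p = 0.0311 for a log2 fold change of 4.49, SE 1.17), and lost its call in 9 of 24 alternatives. In KA_H these 3 genes were also above KA_L in most libraries, for example 41.1, 0.02 and 47.9 TPM against 0, 0 and 0.08 TPM for Ndrg2, but did not pass (adjusted p = 0.231 for Ndrg2, 0.183 for Slc7a10 and 0.116 for Atp1b2).

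All 10 choroid plexus markers rose in APOE_H against APOE_L, where 4.7% of all tested entries rose, and 6 of 10 rose in KA_H against KA_L, where 1.23% did. Ttr, the transthyretin gene that defines choroid plexus epithelium, had a mean of 14132 TPM over the 15 libraries, with a range from 1.46 to 41384 TPM. In CTRL_L, Slc7a10 was at 0, 45.5 and 0 TPM, Ndrg2 at 5.88, 125 and 30.9 TPM and Atp1b2 at 0, 18.5 and 0.12 TPM. The choroid plexus sums of these libraries were 140, 39316 and 23979 TPM. In KA_H replicate 2 Ndrg2 was at 0.02 TPM, where the choroid plexus sums of that group were 33307 to 41425 TPM. The part of choroid plexus RNA in the changes of Clu, Ndrg2, Slc7a10 and Atp1b2 was not tested.

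**Figure D5:**
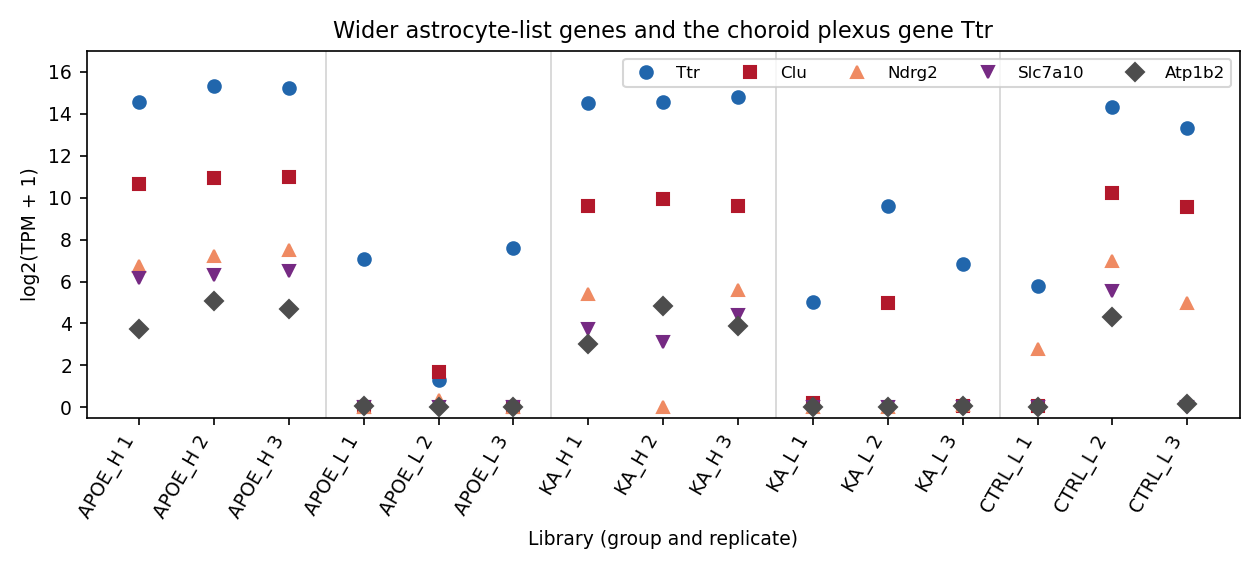
log2(TPM + 1) of the choroid plexus gene Ttr and of 4 genes of the second astrocyte list, Clu, Ndrg2, Slc7a10 and Atp1b2, in each library. All 5 are high in APOE_H and near 0 apart from Ttr in APOE_L, and Clu is high in CTRL_L replicates 2 and 3 and not in replicate 1.

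Of 18 genes linked to reactive astrocytes, 7 to 9 were at 1 TPM or more in the APOE_H libraries and 8 to 11 in KA_H. The number was 2 to 5 in APOE_L, 2 to 3 in KA_L and 2 to 5 in CTRL_L. Over all entries it was 12801 to 15452 in APOE_H and 13192 to 13635 in KA_H. In the L groups it was 10161 to 11237 in APOE_L, 9931 to 12085 in KA_L and 10706 to 11182 in CTRL_L. Of the 18 genes 9 reached the filter, and 4 were listed at 0 in every library. Serpina3n, a widely used reactive marker, did not exceed 0.05 TPM. In KA_H against KA_L 1 of the 9 rose, where 1.23% of all tested entries did. This was Tm4sf1, a membrane protein gene also known in endothelium, at 29.8, 13.5 and 45.3 TPM in KA_H and listed at 0 in all KA_L libraries (adjusted p = 0.0320, limma). The gene reached the filter through its KA_H libraries, as elsewhere it was at 1 TPM or more in APOE_H replicate 1 alone. The call was lost in 7 of 24 alternatives, and the summed endothelial markers were 188 to 782 TPM in KA_H and 28.5 to 295 TPM in KA_L. The part of endothelial RNA was not tested. No gene of the list passed in the other 5 comparisons, where the number with an unadjusted p under 0.05 by limma was 2 in KA_L against CTRL_L, 3 in APOE_H against APOE_L and 1 in each of the rest. The most abundant members were Cxcl10, a chemokine gene (mean 73.6 TPM), Hspb1, a small heat shock protein gene (42.7 TPM), and Stat3, a transcription factor gene (36.7 TPM), all of them also known outside astrocytes. Vim, the other intermediate filament gene of reactive astrocytes, was at 18.5, 7.49 and 12.6 TPM in APOE_H and 0.59, 0.03 and 0.03 TPM in APOE_L, and at 17.1, 7.79 and 23.8 TPM in KA_H and 4.24, 0.92 and 0.21 TPM in KA_L.

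The genes that move or convert glutamate and glutamine on either side of the astrocyte cycle were detected more often. Of 14 such genes 10 reached the filter, and 3 were at 1 TPM or more in every library. In APOE_H against APOE_L Slc38a3 rose and Slc38a1 fell. Slc38a3, which encodes the SNAT3 transporter that releases glutamine from astrocytes, was at 73.6, 58.3 and 114 TPM in APOE_H and was listed at 0 in all APOE_L libraries (adjusted p = 0.0286, limma). In CTRL_L it was at 0, 57.2 and 34.5 TPM, in libraries with choroid plexus sums of 140, 39316 and 23979 TPM. In KA_H it was at 0, 67.5 and 48.8 TPM, in libraries with choroid plexus sums of 33307 to 41425 TPM. An exact 0 can be a failed estimate. The part of choroid plexus RNA in the change of Slc38a3 was not tested.

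Slc38a1, encoding a transporter that takes glutamine into cells, fell to 90.2, 23.0 and 105 TPM in APOE_H, against 243, 585 and 378 TPM in APOE_L (adjusted p = 0.0333 for a log2 fold change of -2.62, SE 0.69). The calls of Slc38a3 and Slc38a1 were lost in 7 and 8 of 24 alternatives. No gene of this list passed in the other 5 comparisons, where 3 in each of KA_L against CTRL_L and KA_H against KA_L, 1 in APOE_H against KA_H and 0 in the rest had an unadjusted p under 0.05 by limma.

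The entries whose levels followed Slc1a3 and Glul most closely were found by the mean absolute difference of log2(TPM + 1), each centred on its own mean over the 15 libraries, among 10701 named entries with a mean of at least 5 TPM. For Slc1a3 the 5 nearest were Chd2, a chromatin remodeller gene (0.30), Ptma, the prothymosin gene (0.33), Itgam, the gene of the myeloid integrin CD11b (0.35), Fcho2, an endocytosis gene (0.40), and Txnip, a thioredoxin-binding protein gene (0.42), where the median entry differed by 1.70. For Glul they were Pmepa1 (0.45), Rgmb (0.47), Slco2b1, a transporter gene (0.49), Itgb5, an integrin gene (0.50), and Csf1r, the receptor gene of microglial survival (0.51), against a median of 1.62. Slc1a3 and Glul were not among each other's nearest entries, with Glul at place 494 for Slc1a3 and Slc1a3 at place 219 for Glul. Slc1a2 and Aldoc were at places 3392 and 8554 for Slc1a3. The libraries of 1 group share their treatment and letter, so these distances describe the pattern over 15 libraries and carry no test.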

How the data were processed

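RNA was extracted with Trizol from flash-frozen brain and made into TruSeq libraries, per the labels' protocols. The authors deposited TPM values, which they had scaled for transcript length and library size, so that every library sums to the same total. STAR and the build GRCh38, a human assembly, are named in the submitters' processing notes, whereas the identifiers are mouse Ensembl genes. The quantifier, annotation and strand setting are not given in the sources used here. Identifiers were matched to symbols through the GENCODE M21 table (52083 of 55416; 10548 further entries are unnamed assembled loci), and no coordinates are given because the builds differ.

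All 15 libraries entered 1 limma 3.58.1 fit in R 4.3.3 on log2(TPM + 1), with a mean per group and an intensity trend. The test covered the 17505 entries that reached 1 TPM in 3 or more libraries. Adjustment was by Benjamini-Hochberg within each of 6 comparisons, with a threshold of 0.05. A log2 fold change on this scale understates changes of low genes. TPM keeps no depth, so no counting interval is given. The fit was tested on simulated data, where false calls were few but power for noisy entries was low; its first pass criterion was not met and was then changed. A p above the threshold therefore does not show that values were alike. Named were the 10 markers, the 3 most abundant genes of each other list where they touch a result, genes of the astrocyte lists that passed, and the 5 nearest profiles; Vim, Serpina3n and the 4 undetected genes named with them were chosen after their values were seen. The 10 markers and all lists were chosen with earlier results of these data known. One result of the glutamate and glutamine list is not reported here. Alternatives changed the pseudocount, filter, scaling, entries, replicate block, libraries and groups fitted.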

Additional observations from a re-analysis of the deposited data

How the results depend on the processing

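Slc1a3 kept its direction in all alternatives of the 6 comparisons, and so did Glul in 5. For KA_L against CTRL_L, Glul (log2 fold change -0.12) was 0.12 under upper-quartile scaling, ran from -0.59 to 0.36 when 1 library was left out, and was 0.60 without CTRL_L replicates 2 and 3 (added after the data were seen). The number of the 10 markers that passed in KA_L against CTRL_L was 0 to 1 with 1 library left out and 1 without those 2 libraries. It was 0 in the other comparisons under each alternative. The summed level of the 10 genes in CTRL_L was 327 TPM under upper-quartile scaling.

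The count of all entries passing in KA_L against CTRL_L (100) was 50 with no filter, 62 with upper-quartile scaling, 0 with only the groups compared and 37 to 229 with 1 library left out (229 without CTRL_L replicate 1). In KA_H against KA_L (260) it was 100, 393, 3 and 10 to 376 in the same order, lowest without KA_H replicate 3. In APOE_H against APOE_L (1076) it was 538 with no filter and 308 to 1296 with 1 library left out, lowest without APOE_H replicate 3. With only the groups compared it rose, as 1289 entries passed as higher and 273 as lower. In APOE_L against KA_L (8) it was 5 with a pseudocount of 5, 13 with no filter, 4 with the replicate block, 1 with only the groups compared and 3 to 69 with 1 library left out. In APOE_H against KA_H (93) it was 4 with no filter, 43 with a filter of 5 TPM, 25 after quantile normalisation, 61 with the replicate block, 0 with only the groups compared and 2 to 94 with 1 library left out. For the difference between treatments (8) it was 0, 3, 13, 24, 0, 1 and 18 with a pseudocount of 5, no filter, a filter of 5 TPM, upper-quartile scaling, quantile normalisation, the replicate block and only the groups compared, and 0 to 22 with 1 library left out. With only the groups compared fewer samples enter the fit. Why the count then fell in some comparisons and rose in others was not tested.

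Same-numbered libraries did not deviate together over all tested entries (correlations from -0.03 to 0.04 over 30 pairs), and the main fit did not pair them. Many of these entries are low and noisy, so the correlations cannot show whether same-numbered libraries shared an animal or a batch. The replicate block changed no call of the 10 markers or of the other genes whose fold changes are given above.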
